A study of Mus musculus with 6 samples.

Results

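Cytochrome P450s and the conjugation enzymes that act after them were examined in tumors of the AOM/DSS model of colitis-associated carcinoma (CAC). P450s are heme enzymes that oxidize drugs, carcinogens, steroids, bile acids, retinoids and fatty acids. UDP-glucuronosyltransferases, glutathione S-transferases and sulfotransferases then attach a polar group, so that the product leaves the cell more easily. The epithelium of the gut carries a share of this system, and receptors such as AHR (a sensor of aromatic ligands), PXR (a sensor of drugs and bile acids) and NRF2 (a sensor of oxidative stress) set the level of many of its genes.

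RNA-seq was performed on 3 Tmem173fl/fl and 3 Tmem173iΔmye AOM+DSS-L tumors, to ask how loss of myeloid STING after tumor formation changes the tumor. All mice were on the C57BL/6N background and carried Tmem173 (the gene encoding STING) flanked by loxP sites, and all received azoxymethane (AOM, a colon carcinogen), 3 cycles of dextran sodium sulfate (DSS, which injures the colonic epithelium) and then tamoxifen (TAM). Tmem173iΔmye mice also carried Lyz2-Cre ert2, a Cre recombinase that TAM activates in Lyz2-expressing myeloid cells, so that other cells of the tumor keep the gene. The labels give the genotypes as WT and CRE, and the age of the mice at each step was not given for this scheme in the sources used here. TAM is itself oxidized by P450s, and no tumor without TAM was analysed here.

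The members were chosen by level: they were the 79 protein-coding genes of these families whose FPKM averaged at least 0.1 over the 6 tumors, of 163 such genes and of 54532 genes in the table. FPKM is a read count scaled by the length of the gene and the size of the library. Of the other family genes, 42 had no count in any tumor and 42 had counts but lay under the limit. Just inside it were Cyp2c67 with a mean of 0.101 FPKM and Cyp4b1 with 0.104 FPKM, and just outside it were Cyp2d11 with 0.0914 FPKM and Cyp2e1 with 0.0797 FPKM. The limit was set on the mean over both groups, and 8 members (Cyp1a1, Cyp2c23, Cyp2c67, Cyp2c69, Cyp4b1, Cyp4f15, Cyp8b1 and Ugt1a1) averaged under 0.1 FPKM in one of the groups, so they became members through the group where they were higher.

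Gene counts totalled 15329810 to 16533732 per tumor. Tmem173 had 1748, 2911 and 1705 counts in Tmem173fl/fl and 2291, 2245 and 1953 counts in Tmem173iΔmye tumors, so whole tumor RNA did not separate the genotypes at this gene. Y-linked genes had 2655 to 3547 counts in 3 tumors, Tmem173iΔmye replicates 1 and 2 and the first Tmem173fl/fl replicate, and at most 2 counts in the others, so the groups differed in the mix of male and female mice. Epithelial markers were high in every tumor, with Krt8 between 2100 and 2420 FPKM. Markers of hepatocytes, the cells best known for these enzymes, were uneven: Fga and Fgb had no count, Serpina1a reached at most 0.105 FPKM and Serpina1b, Hpx and Apoa2 at most 3.1 FPKM, whereas Alb lay between 15.9 and 122 FPKM, Tat between 9.52 and 24.6 FPKM and Ttr between 5.98 and 21.6 FPKM. Of the 6 of these genes that were tested, Ttr alone had an unadjusted p of at most 0.05 (log2 fold change 0.83, SE 0.33, unadjusted p = 0.0346). Summed over the hepatocyte list of 9 genes, the level was 36.9 to 76.3 FPKM in Tmem173fl/fl and 75.5 to 149 FPKM in Tmem173iΔmye tumors, and its part in the results was not tested.

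One tumor stood apart in the markers of differentiation. In Tmem173fl/fl replicate 2, absorptive colonocyte markers summed to 277 FPKM over 8 genes, against 440 to 774 FPKM in the other tumors, and goblet cell markers to 643 FPKM over 7 genes, against 1168 to 3249 FPKM. Not every gene went with its sum, and this tumor was not the lowest for Ms4a12, Slc20a1, Clca1 and Fcgbp. Squamous epithelial markers summed to 174 FPKM over 6 genes in the same tumor, against 18.2 to 59.6 FPKM elsewhere, and Krt5, a keratin of squamous epithelium, was at 38.1 FPKM in it. Among 4 distal position markers, Hoxd12 was at 14.5 FPKM in this tumor, against 0.0247 to 1.22 FPKM elsewhere. Hoxd13 was at 5.47, 81.5 and 63.6 FPKM in Tmem173fl/fl and 9.18, 1.36 and 19.4 FPKM in Tmem173iΔmye tumors. Its log2 fold change was -2.32 (SE 0.99, unadjusted p = 0.0454). Hoxa13 and Hoxb13 were not highest in Tmem173fl/fl replicate 2, and the site of the tumors along the colon was not tested. Tmem173iΔmye replicate 1 had 651 FPKM summed over 10 interferon response genes, against 71.3 to 162 FPKM in the other tumors. All 10 genes had log2 fold changes above 0 for Tmem173iΔmye over Tmem173fl/fl tumors, with a median of 2.06. The groups did not overlap for 1 of them, Ifit3. In whole tumors, fewer cells of a type and less RNA per cell cannot be told apart.

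**Figure D1:**
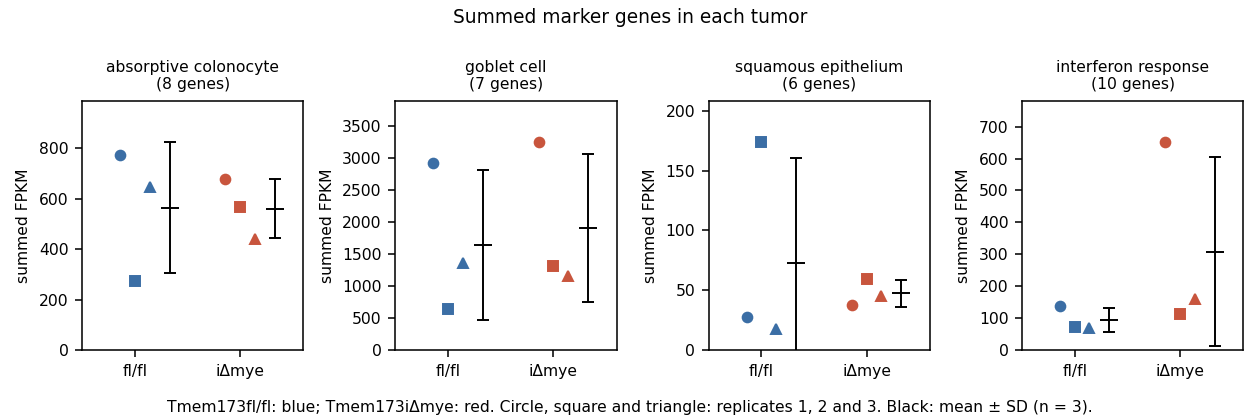
Summed FPKM of 4 marker lists in each tumor (y axis, FPKM; x axis, group; one point per tumor, black bars mean ± SD, n = 3). Tmem173fl/fl replicate 2 is lowest for absorptive colonocyte (277) and goblet cell (643) markers and highest for squamous markers (174), and Tmem173iΔmye replicate 1 is highest for interferon response genes (651).

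To show what lies upstream of members that the results turn on, the 250 bases before the RefSeq start (GRCm38.p6) are given for Cyp4f40, the member with the smallest p-value and higher in Tmem173iΔmye tumors, for Cyp2b10, the lower member with the smallest p-value, and for Cyp1a1, the classical AHR target. They lie at chr17:32658636-32658885, chr7:25897408-25897657 and chr9:57697363-57697612, all on the plus strand. Capitals mark GCGTG, the core that AHR and ARNT bind, or its reverse complement.
Cyp4f40: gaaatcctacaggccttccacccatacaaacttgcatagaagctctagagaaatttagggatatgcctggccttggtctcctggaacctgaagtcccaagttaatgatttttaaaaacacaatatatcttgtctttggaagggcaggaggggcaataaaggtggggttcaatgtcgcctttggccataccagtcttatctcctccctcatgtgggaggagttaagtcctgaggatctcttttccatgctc
Cyp2b10: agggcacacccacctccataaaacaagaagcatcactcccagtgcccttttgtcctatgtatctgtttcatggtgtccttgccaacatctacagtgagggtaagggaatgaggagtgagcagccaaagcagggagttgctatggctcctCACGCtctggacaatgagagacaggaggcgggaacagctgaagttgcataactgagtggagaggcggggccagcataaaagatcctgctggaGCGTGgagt
Cyp1a1: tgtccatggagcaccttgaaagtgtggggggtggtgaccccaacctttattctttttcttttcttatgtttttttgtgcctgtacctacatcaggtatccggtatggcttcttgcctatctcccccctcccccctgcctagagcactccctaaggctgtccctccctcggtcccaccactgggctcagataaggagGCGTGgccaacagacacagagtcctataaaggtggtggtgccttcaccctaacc
The core was found in Cyp2b10, once on each strand, and once in Cyp1a1, and these letters are not in the Cyp4f40 window. As annotated for counting, the genes start at 25897620 for Cyp2b10 and at 57687928 for Cyp1a1. The end of the Cyp2b10 window, with its plus-strand match, and the whole Cyp1a1 window therefore lie inside the annotated genes. Cyp4f40 has a further RefSeq start, whose window at chr17:32658777-32659026 also lacks the core. Windows were found for 67 of the 79 members, 82 windows in all because some genes have several starts. GCGTG was in 26.8% of these windows on either strand, against 28.2% of the 32851 windows of all genes. TGACNNNGC, the core of the antioxidant response element that NRF2 binds, was in 7.32% of the members' windows against 10.2% of all, and AGGTCA, a half-site of nuclear receptors, in 9.76% against 14.0%. TGACNNNGC and AGGTCA were in none of the windows shown, and a match of the one can overlap the reverse complement of the other. A match is a description of the sequence alone.

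Tumor levels of the members spanned a wide range. Mean levels were 0.1 to 1 FPKM for 25 members, 1 to 10 FPKM for 33, 10 to 100 FPKM for 19 and over 100 FPKM for 2. The 2 at the top were Gstp1, a pi class glutathione S-transferase, and Gsto1, an omega class enzyme, which together held 26.7% of the FPKM summed over the members, and the top 10 held 65.2%. P450s summed to 310 ± 69.1 FPKM (SD, n = 3) in Tmem173fl/fl and 290 ± 21.0 FPKM (SD, n = 3) in Tmem173iΔmye tumors. Conjugation enzymes summed to 562 ± 99.5 FPKM (SD, n = 3) and 667 ± 91.8 FPKM (SD, n = 3), and the tumors of the groups overlapped in both sums.

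**Figure D2:**
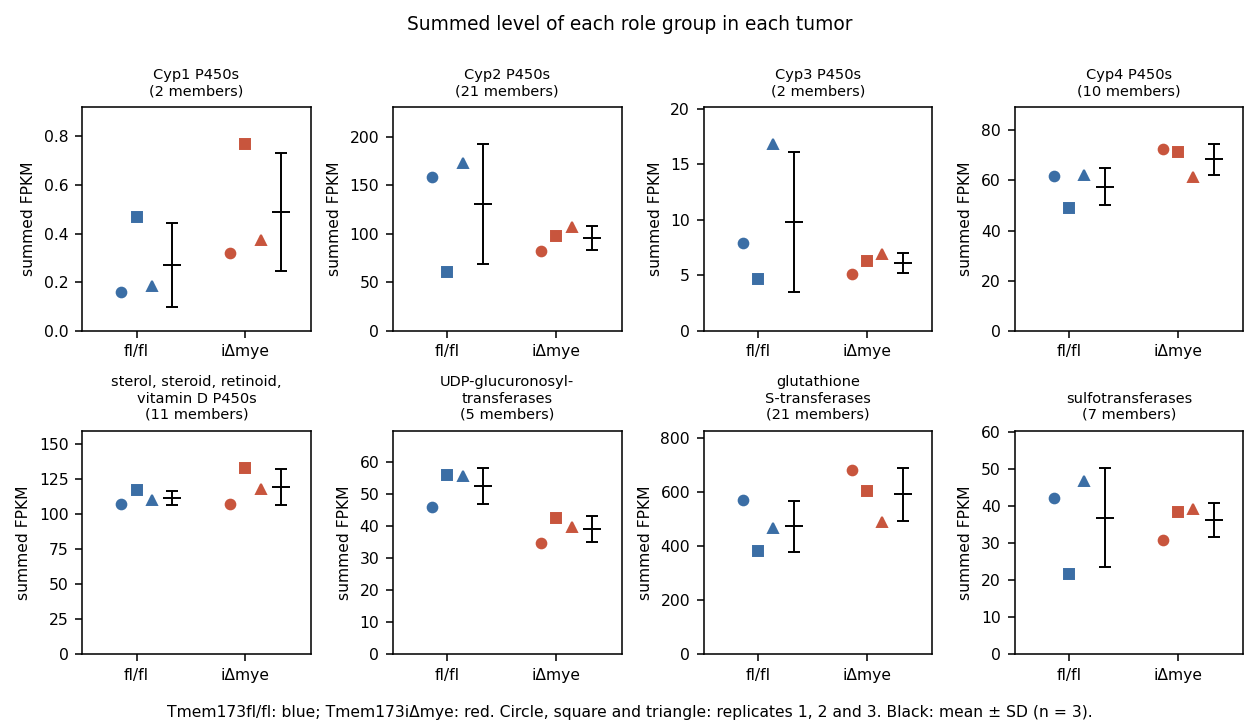
Summed FPKM of each role group in each tumor (y axis, FPKM; x axis, group; one point per tumor, black bars mean ± SD, n = 3). The groups do not overlap for the UDP-glucuronosyltransferases (45.9 to 56.0 against 34.8 to 42.7) and overlap for the other 7 role groups.

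Counts were compared between Tmem173iΔmye and Tmem173fl/fl tumors with edgeR, and fold changes are given for Tmem173iΔmye relative to Tmem173fl/fl. A member was past both limits when its absolute log2 fold change was at least 1 and its unadjusted p at most 0.05. Of the 79 members, 8 were past both limits (10.1%), against 585 of the 21991 genes tested (2.66%). There were 4 higher members (5.06%, against 1.46% of all genes), Cyp4f40, Cyp21a1, Cyp11a1 and Sult4a1, and 4 lower members (5.06%, against 1.2% of all genes), Cyp2b10, Cyp2c55, Cyp2c69 and Ugt1a1. Cyp2c69 and Ugt1a1 were members through their higher group alone, so a difference was built into their entry. Leaving out genes that averaged under 0.1 FPKM in a group, 6 of 71 members (8.45%) were past both limits, 4 higher and 2 lower, against 2.2% of all such genes. An unadjusted p of at most 0.05 was reached by 13 members (16.5%), against 5.74% of all genes. These 13 include Cyp2c69 and Ugt1a1, so a difference was built into this share as well. After Benjamini-Hochberg adjustment over all genes, 0 members and 0.0% of all genes had an adjusted p under 0.05 from edgeR, and the smallest adjusted p was 0.782. DESeq2, the tool the study used, gave an adjusted p under 0.05 for 1 member, Cyp4f40 (adjusted p = 0.0196), and for 0.137% of all genes. The number past both limits depended on single tumors. It was 2 without Tmem173fl/fl replicate 3, 3 without Tmem173iΔmye replicate 1, 3 without Tmem173iΔmye replicate 2 and 4 without Tmem173iΔmye replicate 3. It rose to 10 without Tmem173fl/fl replicate 1 and 11 without Tmem173fl/fl replicate 2. In the same order, 388, 444, 616, 665, 927 and 512 of the 21991 genes were past both limits.

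**Figure D3:**
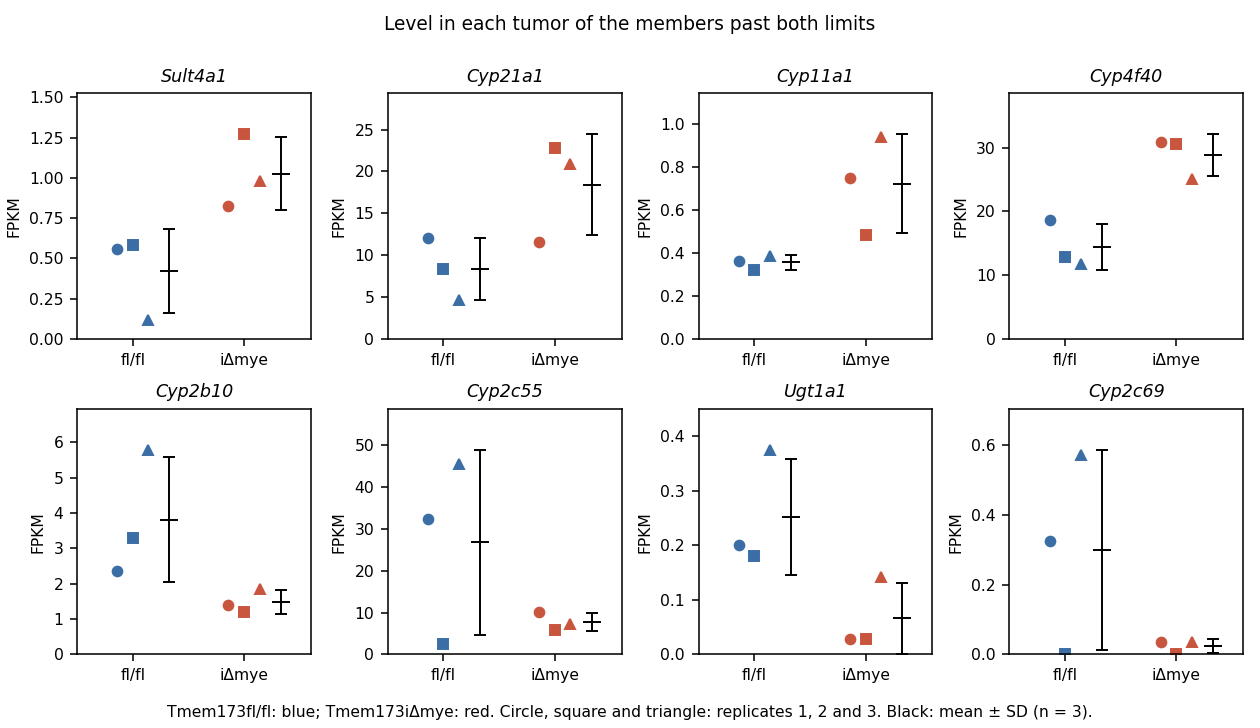
FPKM in each tumor of the 8 members past both limits (y axis, FPKM, a scale of its own for each gene; x axis, group; one point per tumor, black bars mean ± SD, n = 3). The groups do not overlap for Sult4a1, Cyp11a1, Cyp4f40, Cyp2b10 and Ugt1a1 and overlap for Cyp21a1, Cyp2c55 and Cyp2c69.

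As a whole the members did not lean one way. Their log2 fold changes were above 0 for 39 and below 0 for 40, with a median of -0.0097, against -0.0085 over all genes. Of all genes tested, 10701 were above 0 and 11290 below 0. Of the P450s, 31 of 46 were below 0, and 24 of 33 conjugation enzymes were above 0. Without Tmem173fl/fl replicate 3, 22 of 46 P450s were below 0, and without Tmem173fl/fl replicate 2, 21 of 33 conjugation enzymes were above 0. By CPM, 9 members were higher in every Tmem173iΔmye tumor than in any Tmem173fl/fl tumor (11.4%, against 5.73% of all genes), and 5 were lower (6.33%, against 6.18%). Of these 5, Cyp4f15 and Ugt1a1 were members through their higher group alone, so a difference was built into their entry. Among the 9 higher members, 2 were apart by few reads. Gsta2 had 2, 2 and 2 counts in Tmem173fl/fl and 4, 4 and 4 counts in Tmem173iΔmye tumors. Cyp27b1 had 7, 7 and 8 counts against 8, 19 and 8 counts. The median coefficient of variation over the 54 members with a mean of at least 1 FPKM was 32.1% in Tmem173fl/fl and 20.0% in Tmem173iΔmye tumors, against 18.0% and 13.7% over the 14232 such genes.

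**Figure D4:**
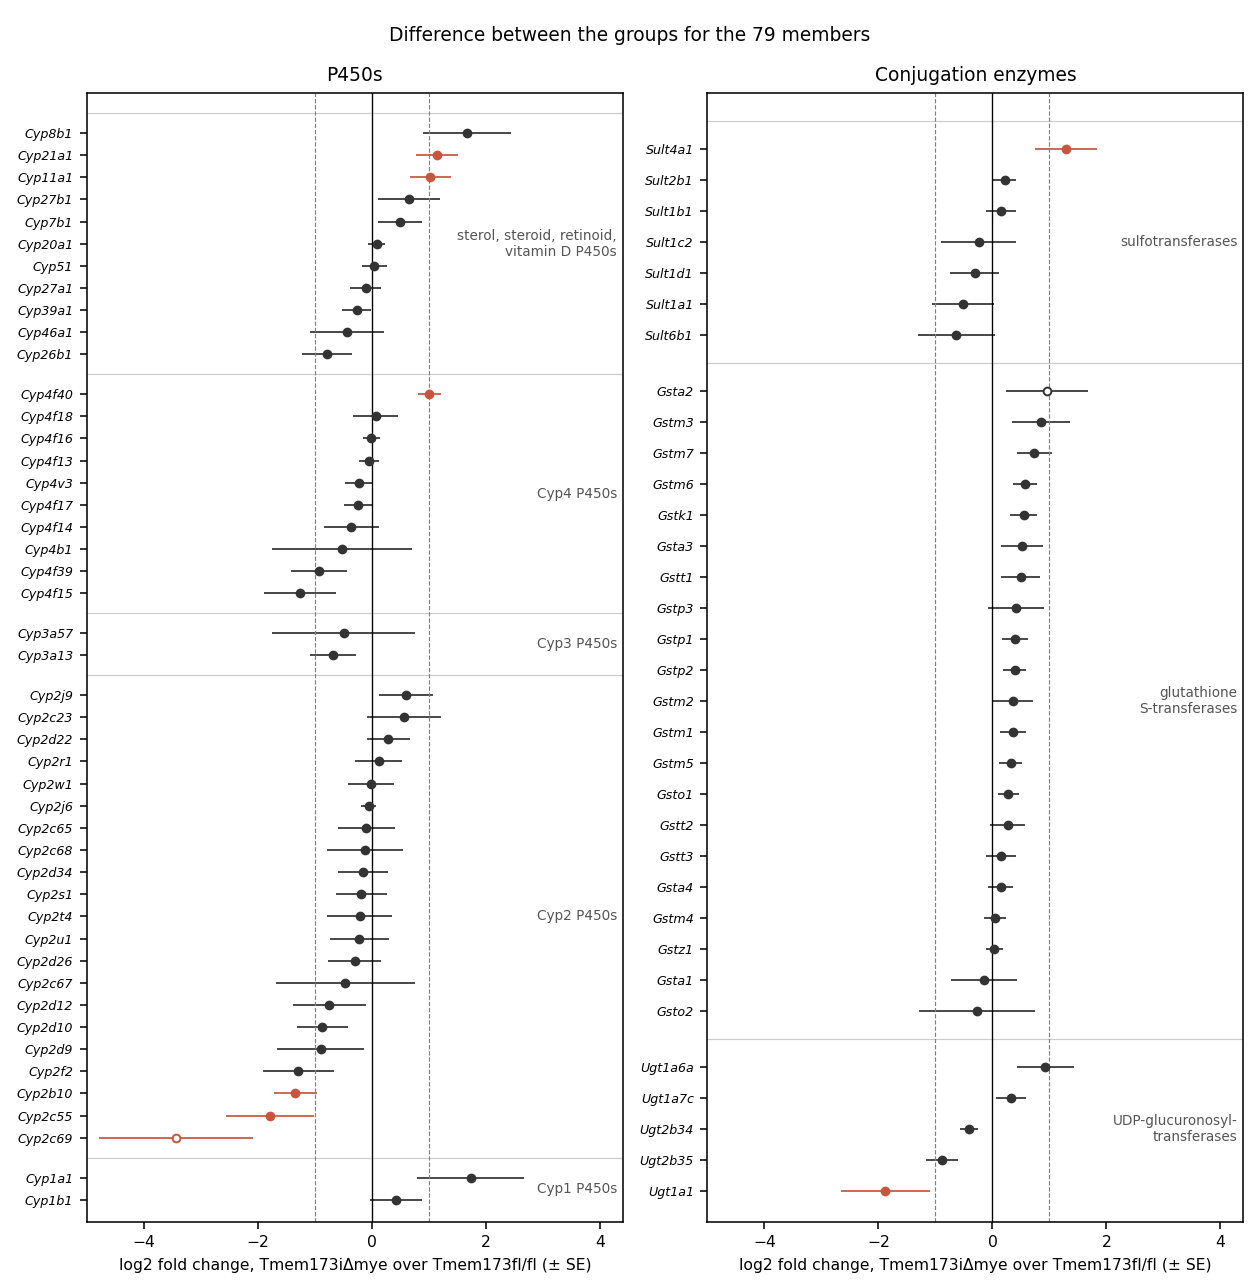
Log2 fold change ± SE of each of the 79 members (x axis; Tmem173iΔmye over Tmem173fl/fl) by role group, P450s on the left and conjugation enzymes on the right. Red marks the 8 members past both limits, open circles the 2 members with at most 3 counts in every tumor of a group (Cyp2c69 and Gsta2), whose fitted values are no measure of size, and dashed lines a log2 fold change of 1 in either direction; 19 of 21 glutathione S-transferases lie right of 0 and 17 of 21 Cyp2 P450s left of it.

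Cyp1 P450s, which oxidize polycyclic aromatic compounds and are the best known AHR targets, were near the lower limit of what was measured. Cyp1a1 was at 0.023, 0.144 and 0.0214 FPKM in Tmem173fl/fl and 0.113, 0.426 and 0.0909 FPKM in Tmem173iΔmye tumors, which are 1, 6 and 1 counts against 5, 19 and 4 counts. Its log2 fold change of 1.73 (SE 0.94) did not pass the test (unadjusted p = 0.1), and the groups overlapped. Without Tmem173fl/fl replicate 2 it was 3.09 (unadjusted p = 0.0268), and without Tmem173iΔmye replicate 2 it was 0.71. Cyp1a1 was a member through its higher group alone, so a difference was built into its entry and into these values. Cyp1b1, which also acts on estrogens, was at 0.137, 0.326 and 0.163 FPKM in Tmem173fl/fl and 0.209, 0.341 and 0.284 FPKM in Tmem173iΔmye tumors, where the groups overlapped (log2 fold change 0.42, SE 0.46).

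Cyp2 P450s form the largest family of drug-metabolizing P450s. Of 49 genes, 21 were members, 17 of them below 0, with a median log2 fold change of -0.22. There were 3 past both limits (14.3%, against 2.66% of all genes), all lower in Tmem173iΔmye tumors. Among these 3, Cyp2c69 was a member through its higher group alone, so a difference was built into its entry. The count below 0 was 12 without Tmem173fl/fl replicate 1, 12 without Tmem173iΔmye replicate 1 and 18 without Tmem173fl/fl replicate 2.

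Cyp2b10, the mouse P450 classically induced through the receptor CAR, lies at chr7:25897620-25926624. It was at 2.36, 3.29 and 5.79 FPKM in Tmem173fl/fl tumors and at 1.4, 1.21 and 1.86 FPKM in Tmem173iΔmye tumors. Every Tmem173iΔmye tumor was lower than any Tmem173fl/fl tumor, and the log2 fold change was -1.35 (SE 0.38, unadjusted p = 0.00637, adjusted p = 0.782). Its unadjusted p stayed at most 0.05 under all 14 alternative settings, and it was past both limits in 12 of them. Nr1i3, which encodes CAR, had at most 12 counts in any tumor.

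Cyp2c55, a P450 of colon and liver that makes hydroxylated arachidonic acid, lies at chr19:39007019-39042693. It was at 32.3, 2.48 and 45.6 FPKM in Tmem173fl/fl tumors and at 10.1, 5.95 and 7.2 FPKM in Tmem173iΔmye tumors. Tmem173fl/fl replicates 1 and 3 were above all Tmem173iΔmye tumors and replicate 2 below them all, so the groups overlapped. The log2 fold change was -1.79 (SE 0.77, unadjusted p = 0.0465), and it kept an unadjusted p of at most 0.05 in 3 of 14 alternatives. Replicate 2 was the tumor with the low colonocyte markers given above, and the part of these cells in the level was not tested.

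Cyp2c69 had 9, 0 and 17 counts in Tmem173fl/fl and 1, 0 and 1 counts in Tmem173iΔmye tumors, that is 26 against 2 counts over the groups, a ratio of 13.0 with an exact 95% counting interval of 3.26 to 113. Its unadjusted p stayed at most 0.05 in 5 of 13 alternatives, and was lost with both limma fits (linear models on log2 FPKM with a pseudocount), with Y-linked reads as a term and without any one tumor other than Tmem173fl/fl replicate 2. Of its transcript sequence, 54.3% was shared with Cyp2c40, Cyp2c67 or Cyp2c68, so the origin of its reads is uncertain. The highest Cyp2 members were Cyp2d34 and Cyp2j6, and neither passed the test with all tumors. Cyp2d34, of the Cyp2d family, was at 61.9, 14.7 and 47.2 FPKM against 28.3, 43.6 and 39.1 FPKM, with Tmem173fl/fl replicates at both ends of the range, and without Tmem173fl/fl replicate 2 its log2 fold change was -0.56 (unadjusted p = 0.03). Cyp2j6, of the Cyp2j family, was at 21.5, 18.9 and 18.1 FPKM against 18.4, 19.5 and 18.2 FPKM, a log2 fold change of -0.05 (SE 0.13) with little spread between tumors.

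Cyp3 P450s, the main drug-oxidizing family of the intestine, had 2 members of 9 genes, both below 0 and neither past the test. Cyp3a13, a Cyp3a enzyme of the mouse intestine, was at 7.93, 4.59 and 16.4 FPKM in Tmem173fl/fl and 5.11, 6.07 and 6.79 FPKM in Tmem173iΔmye tumors. Tmem173fl/fl replicate 3 was more than any other tumor by over 2 times, and the groups overlapped (log2 fold change -0.68, SE 0.40, unadjusted p = 0.123). The value turned on single tumors: it was -1.03 (unadjusted p = 0.0113) without Tmem173fl/fl replicate 2 and -0.06 without Tmem173fl/fl replicate 3. Cyp3a57 had at most 13 counts in any tumor.

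Cyp4 P450s hydroxylate fatty acids, leukotrienes and other eicosanoids at or near the end of the chain. Of 20 genes, 10 were members, 8 of them below 0. Of the 10, 1 was past both limits, against 2.66% of all genes. Cyp4f40, a Cyp4f member at chr17:32659410-32676687, was at 18.6, 12.8 and 11.8 FPKM in Tmem173fl/fl and 30.9, 30.5 and 25.1 FPKM in Tmem173iΔmye tumors. All 3 Tmem173iΔmye tumors were above all Tmem173fl/fl tumors, by a log2 fold change of 1.01 (SE 0.21, unadjusted p = 0.000932, adjusted p = 0.782). It kept an unadjusted p of at most 0.05 in all 14 alternatives and passed both limits in 7 of them, with log2 fold changes between 0.88 and 1.24.

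The neighbors of Cyp4f40 did not follow it. The 7 Cyp4f members between 32468462 and 32947402 on chromosome 17 had a median log2 fold change of -0.24, and Cyp4f40 was the only one above 0. Cyp4f16, which starts before Cyp4f40 on the same strand, was at 15.0, 12.7 and 15.6 FPKM against 14.6, 14.6 and 13.6 FPKM, a log2 fold change of -0.01 (SE 0.14). Cyp4f15, which starts after it, was at 0.252, 0.205 and 0.157 FPKM against 0.0828, 0.11 and 0.0555 FPKM. Its groups did not overlap, yet it had at most 9 counts in a tumor, and its log2 fold change of -1.27 (SE 0.63) did not pass the test (unadjusted p = 0.0765). Cyp4f15 was a member through its higher group alone, so a difference was built into its entry.

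P450s of sterol, steroid, retinoid and vitamin D metabolism had 11 members of 19 genes, 7 of them above 0, with a median log2 fold change of 0.08. Of the 11, 2 were past both limits (18.2%, against 2.66% of all genes), both higher. Cyp21a1, the steroid 21-hydroxylase of corticosteroid synthesis, lies at chr17:34801348-34804561. It was at 12.1, 8.34 and 4.65 FPKM in Tmem173fl/fl and 11.6, 22.8 and 20.9 FPKM in Tmem173iΔmye tumors. Tmem173iΔmye replicate 1 was below Tmem173fl/fl replicate 1, so the groups overlapped, and the log2 fold change was 1.14 (SE 0.36, unadjusted p = 0.0127, adjusted p = 0.782). Of its transcript sequence, 23.8% was shared with the pseudogene Cyp21a2-ps and with Tnxa.

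Cyp11a1, the enzyme that cleaves the side chain of cholesterol at the start of steroid synthesis, was at 0.36, 0.32 and 0.385 FPKM in Tmem173fl/fl and 0.747, 0.481 and 0.936 FPKM in Tmem173iΔmye tumors. The groups did not overlap, at 23 to 31 counts against 37 to 71 counts, and the log2 fold change was 1.02 (SE 0.36, unadjusted p = 0.0191). It was past both limits in 8 of 14 alternatives, and the unadjusted p was lost without Tmem173iΔmye replicate 3 (log2 fold change 0.79, unadjusted p = 0.0863). In FPKM, both steroidogenic members were below the most abundant members of the role group, Cyp51 and Cyp27a1. Cyp51, the lanosterol demethylase of cholesterol synthesis, was at 40.6, 53.9 and 29.4 FPKM against 47.1, 36.5 and 43.2 FPKM. Cyp27a1, which hydroxylates sterols in mitochondria, was at 35.2, 33.5 and 56.7 FPKM against 28.1, 53.5 and 34.1 FPKM. For both of these the spread within a group was larger than the difference between the groups.

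UDP-glucuronosyltransferases attach glucuronic acid to bilirubin, steroids, drugs and carcinogens. Only 5 of 20 genes were members, and 3 of these were lower in every Tmem173iΔmye tumor than in any Tmem173fl/fl tumor (60.0%, against 6.18% of all genes): Ugt2b34, Ugt2b35 and Ugt1a1. Ugt1a1 was a member through its higher group alone, so a difference was built into its entry and into this share. Ugt2b34, of the Ugt2b branch and the highest of the 5 members, was at 35.2, 44.9 and 39.6 FPKM in Tmem173fl/fl and 25.8, 31.9 and 32.0 FPKM in Tmem173iΔmye tumors. Its fall by 0.41 on the log2 scale (SE 0.15, unadjusted p = 0.0241) was under the fold limit, and the unadjusted p stayed at most 0.05 in 9 of 14 alternatives. It was lost with limma on log2(FPKM + 0.1), with Y-linked reads as a term and without Tmem173fl/fl replicate 2, Tmem173fl/fl replicate 3 or Tmem173iΔmye replicate 1. Ugt2b35, its neighbor on chromosome 5, was at 6.21, 8.66 and 12.1 FPKM against 5.51, 5.43 and 3.58 FPKM, a log2 fold change of -0.89 (SE 0.28, unadjusted p = 0.011) that was also under the fold limit. For Ugt2b35 the unadjusted p stayed at most 0.05 in 13 of 14 alternatives, and was lost without Tmem173fl/fl replicate 3.

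The Ugt1a genes share their last exons, so their reads are divided with uncertainty. Ugt1a1, the bilirubin glucuronosyltransferase, was past both limits at 0.201, 0.18 and 0.375 FPKM against 0.0283, 0.0281 and 0.142 FPKM, that is 7, 6 and 14 counts against 1, 1 and 5 counts. The log2 fold change was -1.88 (SE 0.79, unadjusted p = 0.0417), and the unadjusted p stayed at most 0.05 in 6 of 13 alternatives. Of its transcript sequence, 80.2% was shared with other genes, among them Ugt1a2, Ugt1a5 and Ugt1a6a. Ugt1a7c, the most abundant of the Ugt1a members, was at 4.02, 2.17 and 3.24 FPKM against 3.25, 4.89 and 3.65 FPKM, and Ugt1a6a had 5 to 15 counts against 15 to 27 counts. Neither passed the test, and both were above 0.

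Glutathione S-transferases couple glutathione to reactive compounds. They were the role group measured most fully, with 21 of 22 genes as members. Of these, 19 had log2 fold changes above 0, with a median of 0.36, and 0 were past both limits. An unadjusted p of at most 0.05 was reached by 3, Gstm6, Gstm7 and Gstk1, all higher in Tmem173iΔmye tumors (14.3%, against 5.74% of all genes in either direction), and the groups did not overlap for 5, these 3, Gstp2 and Gsta2 (23.8%, against 5.73% of all genes). The count above 0 was 17 without Tmem173fl/fl replicate 2, the tumor with the low colonocyte markers, and 16 without Tmem173iΔmye replicate 1, and it lay between 18 and 20 without any one of the others. Gsta2 had 2 counts in each Tmem173fl/fl and 4 counts in each Tmem173iΔmye tumor, a ratio of counts of 0.501 for Tmem173fl/fl over Tmem173iΔmye with an exact 95% counting interval of 0.154 to 1.44.

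Gstm6, a mu class enzyme, was at 3.57, 3.43 and 3.78 FPKM in Tmem173fl/fl and 4.75, 6.1 and 5.12 FPKM in Tmem173iΔmye tumors, and its log2 fold change was 0.57 (SE 0.21, unadjusted p = 0.0265). Gstm7, also of the mu class, was at 7.36, 7.47 and 10.1 FPKM against 10.2, 20.7 and 10.5 FPKM, with Tmem173iΔmye replicate 2 about 2 times the other tumors of its group. Gstk1, the mitochondrial and peroxisomal kappa class enzyme, was at 13.7, 8.64 and 8.04 FPKM against 14.5, 14.3 and 15.5 FPKM, where Tmem173fl/fl replicate 1 nearly reached the other group. The unadjusted p stayed at most 0.05 in 11 of 14 alternatives for Gstm6, in 8 for Gstm7 and in 7 for Gstk1. With Y-linked reads as a term it was lost for Gstm7 and Gstk1. Without single tumors it was lost for Gstm6 (without Tmem173fl/fl replicate 1, Tmem173iΔmye replicate 2 or 3), for Gstm7 (without Tmem173fl/fl replicate 1 or 2 or Tmem173iΔmye replicate 2) and for Gstk1 (without any one tumor other than Tmem173fl/fl replicate 1). The 7 Gstm members lie within 107895821 to 108044894 on chromosome 3, and all had log2 fold changes above 0, from 0.04 to 0.85. The 3 Gstp members on chromosome 19 had 0.39 to 0.42.

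Gstp1 was at 129, 89.1 and 119 FPKM in Tmem173fl/fl and 201, 125 and 117 FPKM in Tmem173iΔmye tumors. Tmem173iΔmye replicate 1 was high and the other 5 tumors overlapped, and the log2 fold change of 0.40 (SE 0.23) did not pass the test (unadjusted p = 0.124). Gsto1, which acts on thiols and arsenic compounds, was at 126, 95.1 and 87.2 FPKM against 141, 125 and 106 FPKM, a log2 fold change of 0.28 (SE 0.18) with overlapping groups. Without Tmem173fl/fl replicate 1 the Gsto1 value was 0.46 (unadjusted p = 0.0316). Gstp1 shared 33.7% of its transcript sequence with Gstp2 and a pseudogene, and Gsta1 shared 90.5% with Gsta2 and predicted genes.

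Sulfotransferases transfer sulfate to hormones, catechols and phenols. Of 21 genes, 7 were members, 3 above and 4 below 0, with 1 past both limits (14.3%, against 2.66% of all genes). Sult4a1, a brain sulfotransferase with no settled substrate, was at 0.561, 0.585 and 0.119 FPKM in Tmem173fl/fl and 0.827, 1.27 and 0.983 FPKM in Tmem173iΔmye tumors. The groups did not overlap, at 5 to 22 counts against 33 to 51 counts, and the log2 fold change was 1.29 (SE 0.55, unadjusted p = 0.0438). The unadjusted p stayed at most 0.05 in 8 of 14 alternatives. It was lost at a mean FPKM of at least 0.5 and with Y-linked reads as a term. Leaving out Tmem173fl/fl replicate 3, the tumor with 5 counts, or any single Tmem173iΔmye tumor also lost it. Sult1b1, the sulfotransferase of thyroid hormones and phenols in the gut, was at 23.1, 10.3 and 16.6 FPKM against 16.5, 20.2 and 18.4 FPKM. Sult1d1, which acts on catecholamines, was at 9.03, 3.86 and 12.2 FPKM against 4.12, 6.41 and 9.63 FPKM, and neither passed the test.

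Across the members, Tmem173fl/fl replicate 2 was most often the lowest tumor, for 35 of 79 (44.3%), against 26.0% of all genes tested. Tmem173fl/fl replicate 3 was most often the highest, for 25 of 79 (31.6%), against 18.2% of all genes. In replicate 2, 6 of the 54 members with a mean of at least 1 FPKM were under 0.5 times their level in every other tumor (11.1%, against 2.19% of all such genes). These were Cyp2c55, Cyp2d9, Cyp2d12, Cyp4f14, Gsta1 and Gstm2. Cyp2d9, a Cyp2d P450, was at 0.201 FPKM there, against 1.33 to 4.0 FPKM in the other 5 tumors, and Gsta1, an alpha class transferase, was at 2.03 FPKM, against 6.15 to 15.1 FPKM. The same tumor had the lowest sums of colonocyte and goblet cell markers, and the part of these cells in the levels was not tested. None of these 54 members fell below 0.5 times every other tumor in any of the other 5 tumors.

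**Figure D5:**
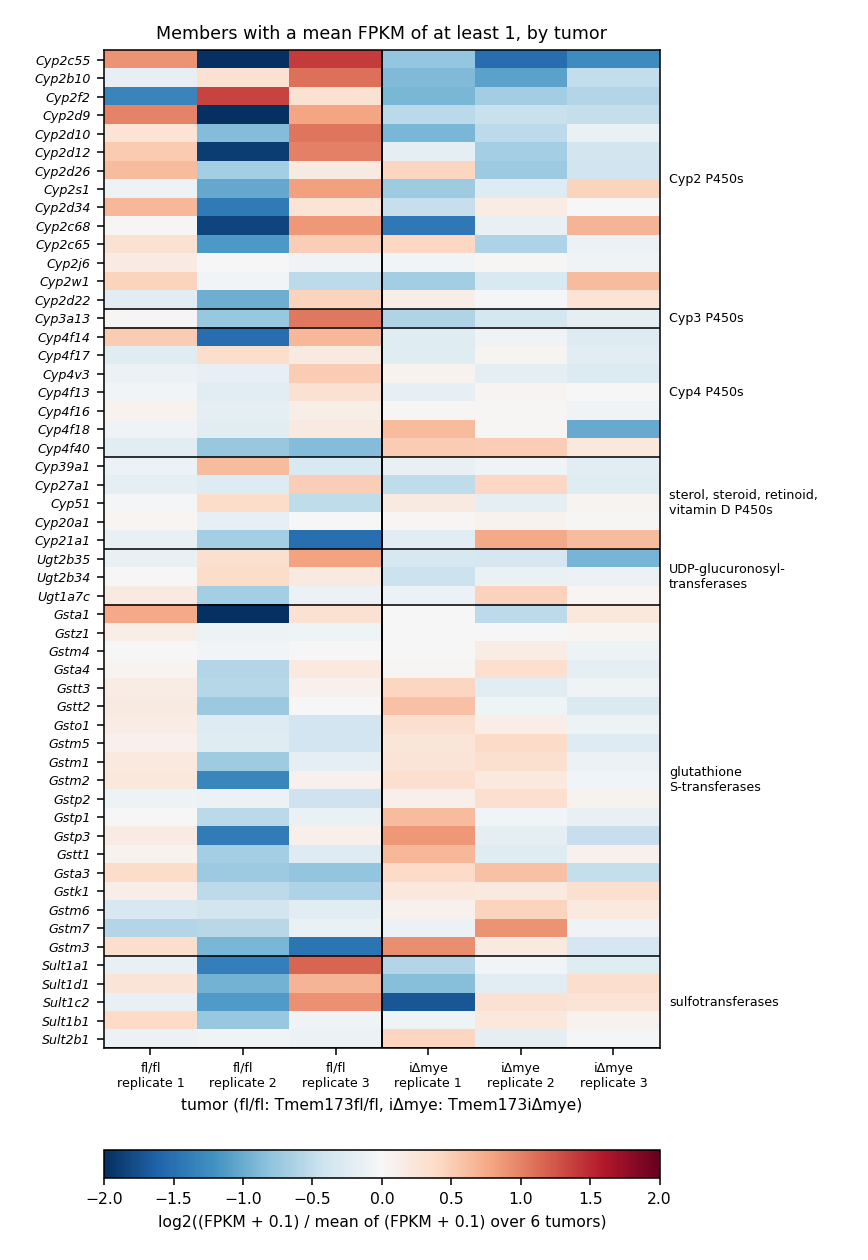
Level of each of the 54 members with a mean of at least 1 FPKM (rows, by role group and within it by fold change) in each tumor (columns), as log2 of FPKM + 0.1 over the mean of FPKM + 0.1 of the 6 tumors, with colors limited to 2 in either direction. The column of Tmem173fl/fl replicate 2 is blue for most Cyp2 P450s and for Gsta1, Cyp4f14 and Gstm2, and Cyp4f40 is blue in all 3 Tmem173fl/fl and red in all 3 Tmem173iΔmye tumors.

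The other genes of the pathway were taken from lists of regulators, electron donors, cofactor supply, other enzymes and transporters. Of 68 partner genes, 65 were tested, 33 above and 32 below 0, and 2 were past both limits (3.08%, against 2.66% of all genes), a share near that of all genes, and both were lower in Tmem173iΔmye tumors. Aldh3a1, an aldehyde dehydrogenase and AHR target, was at 0.824, 0.585 and 1.07 FPKM in Tmem173fl/fl and 0.227, 0.322 and 0.424 FPKM in Tmem173iΔmye tumors, a log2 fold change of -1.34 (SE 0.45, unadjusted p = 0.0161). Fmo2, a flavin monooxygenase, was at 0.822, 0.679 and 1.84 FPKM against 0.314, 0.546 and 0.508 FPKM, a log2 fold change of -1.28 (SE 0.44, unadjusted p = 0.0174). In both genes the groups did not overlap. Neither gene was past both limits without Tmem173iΔmye replicate 1 or without Tmem173fl/fl replicate 3.

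Among the regulators, 14 of 16 were tested and 0 were past both limits. Ahr itself was at 9.15, 9.15 and 13.2 FPKM in Tmem173fl/fl and 5.77, 8.38 and 8.25 FPKM in Tmem173iΔmye tumors, without overlap, and its log2 fold change of -0.49 (SE 0.21, unadjusted p = 0.0447) was under the fold limit. The unadjusted p of Ahr stayed at most 0.05 in 8 of 14 alternatives, and was lost with both limma fits, with Y-linked reads as a term (unadjusted p = 0.101) and without Tmem173fl/fl replicate 3 (unadjusted p = 0.198), Tmem173iΔmye replicate 1 or Tmem173iΔmye replicate 3. The AHR target list of 10 genes had 7 tested, 5 above and 2 below 0, with Aldh3a1 the only one past both limits. Nr1i2, which encodes PXR, was at 23.5, 13.1 and 16.7 FPKM against 17.3, 20.7 and 21.7 FPKM, and did not pass the test. Nfe2l2, which encodes NRF2, was at 43.4, 42.8 and 38.4 FPKM against 40.5, 48.2 and 49.3 FPKM, with a log2 fold change of 0.15 (SE 0.14). Of 13 NRF2 targets, 4 of which are members, 11 were above 0 and 0 were past both limits. Por, the reductase that passes electrons to microsomal P450s, was at 31.7, 31.9 and 41.5 FPKM against 26.0, 35.0 and 37.1 FPKM, with overlapping groups. The 6 electron donors, the 11 genes that supply cofactors for conjugation and the 10 transporters had 0 past both limits. Summed FPKM of the 11 cofactor genes did not overlap, at 355 to 367 in Tmem173fl/fl and 323 to 334 in Tmem173iΔmye tumors. Gene by gene, 4 of the 11 were above 0 and 7 below 0, and only 1, Papss2, was without overlap. Papss2 was at 57.7, 81.1 and 63.9 FPKM in Tmem173fl/fl and 37.1, 57.3 and 53.6 FPKM in Tmem173iΔmye tumors. The sums of the other partner lists overlapped, and the cause was not tested.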

How the data were processed

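Per the labels, polyA RNA of 3 Tmem173fl/fl and 3 Tmem173iΔmye tumors was sequenced with the NEBNext Ultra kit, and groups and replicate numbers were taken from the sample titles. Per the submitters' processing notes, the authors used CASAVA 1.8, fastp, HISAT2 2.0.5, featureCounts 1.5.0-p3 and DESeq2 1.20.0 with GRCm38. The authors deposited 1 table of 54532 genes with raw read counts and FPKM per tumor. The deposited FPKM equal counts over gene length and a scale per tumor, with a largest relative difference of 3.98e-09. Their own fold changes and p-values in it were not used. Strand use in counting was not given in the sources used here, so reads of antisense genes cannot be told apart.

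All 21991 genes that averaged 0.1 FPKM or more were tested with edgeR 4.0.16 (R 4.3.3; quasi-likelihood, TMM, group as the only term, Benjamini-Hochberg adjustment). SE is the log2 fold change over the square root of F, and groups without overlap were found from CPM. Nothing in the labels says that the tumors came from separate mice, so p-values measure the spread between these samples. The members and lists were chosen with earlier results of these data known. Named genes are the members past both limits, the 2 highest and the lowest-p member of each role group, Cyp1a1, Cyp1b1, Ahr, Nr1i2, Nfe2l2, Por and partners past both limits; other genes were named after their values were seen. Shared sequence is the percent of 50-base words of a gene's GENCODE vM21 transcripts found in other genes' transcripts. Totals were 15329810 to 16533732 counts, and counting intervals cover counting error only. Scripts were tested on simulated data. Alternatives were a mean FPKM of at least 0.5, no filter, median-of-ratios scaling, DESeq2 1.42.0, limma 3.58.1 on log2(FPKM + 1) and log2(FPKM + 0.1), the replicate block, Y-linked reads as a term, and each tumor left out. Figures and lists were made with Python 3.11.15.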

Additional observations from a re-analysis of the deposited data

How the results depend on the processing

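Of the 79 members, 8 were past both limits, and 0 to 1 had an adjusted p under 0.05 under the alternatives. The number past both limits was 3 at a mean FPKM of at least 0.5 (60 members tested), 1 with limma on log2(FPKM + 1) and 4 with Y-linked reads as a term, and 2 to 11 when each tumor was left out, and it lay between 6 and 9 under the others. For all genes it was 349, 131 and 338 under the same settings, against 585, and 388 to 927 when each tumor was left out, and 872 with no filter. Partners past both limits numbered 0 with limma on log2(FPKM + 1) and 0 to 3 when each tumor was left out. The median log2 fold change of the members was -0.029 to 0.20 when each tumor was left out, highest without Tmem173fl/fl replicate 3. Of named genes that did not pass the test, the sign turned for Cyp2d34, to 0.046 with limma on log2(FPKM + 1), 0.055 with limma on log2(FPKM + 0.1) and 0.032 with the replicate block, and for Cyp3a57, to 0.37 with Y-linked reads as a term. Leaving out each tumor turned the sign of 10 named genes, with log2 fold changes of -0.42 to 0.17 for Cyp27a1, -0.56 to 0.26 for Cyp2d34, -0.10 to 0.028 for Cyp2j6, -1.32 to 1.17 for Cyp3a57, -0.10 to 0.047 for Cyp4f16, -0.15 to 0.27 for Cyp51, -0.021 to 0.43 for Nr1i2, -0.20 to 0.046 for Por, -0.11 to 0.46 for Sult1b1 and -0.66 to 0.062 for Sult1d1. The causes were not tested.

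Tumors with the same number deviated from their group's mean with correlations of 0.287, 0.00544 and 0.139 across genes. Tumors with different numbers had correlations of -0.334 to 0.196. With so few tumors, these values cannot decide whether the numbers pair the tumors. With the replicate block, 6 members, 551 genes and 2 partners were past both limits, and the median of the members was 0.032. Not every tumor correlated best with its own number. With the block, Gstp1 had an unadjusted p of 0.049 (log2 fold change 0.37). Counts by sign, recomputed after the data were seen, were 12 to 18 Cyp2 P450s below 0 and 16 to 20 glutathione S-transferases above 0 when each tumor was left out. Depth limits Cyp1a1, Cyp2c69, Cyp3a57, Ugt1a1 and Gsta2, which had few counts per tumor.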
